A study of Mus musculus with 9 samples.

Results

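The 10 genes described here encode transcription factors of the AP-1 family, the early growth response factor Egr1 and the immediate early gene product Ier2. They were chosen by gene name, as Fos, Fosb, Fosl1, Fosl2, Jun, Junb, Jund, Atf3, Egr1 and Ier2. Each name matched 1 of the 30560 rows of the gene table, and all 10 passed the filter on low values. RNA was sequenced from ulcer skin taken on day 21, in 3 groups of 3 libraries. All 9 libraries came from ulcers. Non-diabetic ulcers and diabetic ulcers were injected with saline, and a further group of diabetic ulcers was injected with platelet-rich plasma (PRP, blood plasma in which platelets are concentrated). The series design gives 0.5 ml injected at the wound on days 1, 7, 14 and 21 in every group, so the last injection fell on the labelled day of sampling, and the hours between them are not given in the sources used here. The design names rats and every gene identifier is a rat identifier, while the sample labels name mouse. Strain, age, sex and the way diabetes was induced are not given in the sources used here.

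AP-1 is a dimer of leucine zipper proteins. JUN proteins pair with themselves or with FOS proteins, FOS proteins need a JUN partner, and ATF3 can pair with JUN proteins. Fos, Fosb, Jun, Junb, Atf3, Egr1 and Ier2 are immediate early genes, whose transcription starts within minutes of a growth factor, cytokine or stress signal and whose mRNA is short-lived. Jund and Fosl2 are known for steadier expression. In wounded skin these factors are induced at the wound margin, and AP-1 is known to drive genes of proteases, cytokines and keratinocyte differentiation.

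Letters of the promoters of 3 genes that passed the test below, Fos, Fosb and Junb, and of Jun, which did not, are shown to give the sites that this class of gene is known for. They are mouse sequences from RefSeq (GRCm38.p6), since no rat sequence was used here, and the rat promoters may differ from them. Each is the 150 bases before the annotated start, from 5′ to 3′ on the strand of the gene. Capitals mark matches, on either strand, to TGACG (core of the cAMP response element), TGACGTCA (the full element, which contains that core), TGANTCA (AP-1 site), TGACATCA (the AP-1 variant of the Jun promoter) and GCGNGGGCG (EGR site). Fos lies at chr12:85473740-85473889 (plus strand), Fosb at chr7:19310046-19310195 (minus strand), Junb at chr8:84978749-84978898 (minus strand) and Jun at chr4:95052223-95052372 (minus strand).
Fos: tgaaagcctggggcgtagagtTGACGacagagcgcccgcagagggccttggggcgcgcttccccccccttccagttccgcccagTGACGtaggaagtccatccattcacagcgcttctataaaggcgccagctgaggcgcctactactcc
Fosb: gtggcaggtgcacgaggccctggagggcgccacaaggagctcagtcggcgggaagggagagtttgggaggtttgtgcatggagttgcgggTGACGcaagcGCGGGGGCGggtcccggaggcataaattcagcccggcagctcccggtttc
Junb: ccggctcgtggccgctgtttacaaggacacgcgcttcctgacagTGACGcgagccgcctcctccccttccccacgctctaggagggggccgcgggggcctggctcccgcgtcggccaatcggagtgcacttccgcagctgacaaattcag
Jun: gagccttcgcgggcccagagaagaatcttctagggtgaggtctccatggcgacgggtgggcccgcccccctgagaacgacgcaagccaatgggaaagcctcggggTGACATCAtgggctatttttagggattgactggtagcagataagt
Of the 10 genes, 7 had a mouse window, all but Fosl1, Egr1 and Ier2. TGACG was found in 4 of the 7 windows, those of Fos, Fosb, Junb and Atf3, and in 13.3% of all 32851 windows of this length. GCGNGGGCG was found in the windows of Fosb and Fosl2 and in 3.81% of all windows. TGACATCA was found in the Jun window and in 2.32% of all windows. TGACGTCA and TGANTCA were in 0 of the 7 windows and in 1.36% and 4.24% of all windows. A match describes letters and not a bound site.

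The measure was FPKM (sequenced fragments scaled to gene length and to the mapped fragments of the library), and tests used log2(FPKM + 1). FPKM summed to 564078 to 728332 per library, and relative depth, from 58 lncRNA genes with deposited counts, ran from 0.836 to 1.112. Libraries of 1 group differed in tissue make-up. Averaged over hair follicle and keratinocyte markers on the log2(FPKM + 1) scale, an epithelial level stood at 4.68, 6.34 and 1.75 in non-diabetic replicates 1 to 3, 5.68, 7.55 and 7.26 in diabetic replicates 1 to 3, and 6.87, 6.86 and 5.86 in PRP replicates 1 to 3. All 8 measured keratinocyte and all 8 fibroblast markers were above 0 in every library. The labels number biological replicates without saying which animals they came from, so p-values measure the spread between these libraries.

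The comparison of diabetic with non-diabetic ulcers asked how diabetes changes the wound. All 10 genes had a lower mean in diabetic ulcers, and 4 of them fell past the threshold, Fos, Fosb, Junb and Ier2 (limma, adjusted p under 0.05 over 15600 features). Among all features 8.95% passed, 7.16% lower and 1.79% higher, and 7258 of 15600 had a lower mean log2 level. The median log2 change of the 10 genes was -0.95, against 0.045 over all features. In 6 of the 10 the groups did not overlap, Fosl2 and Jund being the others, where 19.6% of all features lay without overlap in that direction and 14.4% in the other, as none of the 10 did. In bulk tissue, fewer cells of a type and less RNA per cell cannot be told apart. Single libraries moved the number that passed. No gene of the 10 passed when any of these libraries was left out: non-diabetic replicate 1 or 3, diabetic replicate 2 or 3, or PRP replicate 1 or 2. The number was 2 without PRP replicate 3 (Fosb and Junb), where 411 of 15503 features passed. It was 6 without diabetic replicate 1 (Jund and Atf3 added), where 2604 of 15491 features passed. Without non-diabetic replicate 2 it was 7 (Fosl1, Fosl2 and Jund added), where 3475 of 15500 features passed. It was also 0 with only the 6 libraries compared, with no filter on low values and with the epithelial level as a covariate. With sample weights it was 9, where 5607 of 15600 features passed. In these fits with 0 of the 10 passing, 0 or 2 of all features passed, so the counts moved over the whole table.

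Fos, the founding member of the FOS family (ENSRNOG00000008015, rat chromosome 6, 105121170 to 105124036, build not given in the sources used here), had the largest difference of the 10 on the log2(FPKM + 1) scale. Its FPKM was 176, 100.3 and 157 in non-diabetic replicates 1 to 3, 48.5, 6.68 and 6.01 in diabetic replicates 1 to 3, and 55.5, 28.5 and 11.7 in PRP replicates 1 to 3. All 3 non-diabetic libraries were above the other 6, and the first replicate stood highest in each of the diabetic and PRP groups. The mean fell from 145 ± 39.4 to 20.4 ± 24.4 FPKM (SD, n = 3 each), which is 7.08-fold lower. The log2 change was -3.35 (SE 0.78, adjusted p = 0.0412 in limma). It was -4.27 without diabetic replicate 1, the high diabetic library, and adjusted p-values ran from 0.00748 to 0.757 over the alternatives. In its lowest library Fos exceeded 47.9% of tested features, and in its highest 98.3%.

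Fosb, the FOS family member closest to Fos in its induction (ENSRNOG00000046667, chromosome 1, 78954115 to 78961465), was like Fos highest in replicate 1 of each group. Unlike Fos, it was lowest in diabetic replicate 2 and not in diabetic replicate 3. It stood at 18.5, 7.66 and 16.7 FPKM in non-diabetic replicates 1 to 3, at 3.57, 0.232 and 0.506 FPKM in diabetic replicates, and at 3.54, 1.38 and 0.533 FPKM in PRP replicates. Again no diabetic or PRP library reached the lowest non-diabetic one. The mean went from 14.3 ± 5.81 to 1.44 ± 1.85 FPKM, a log2 change of -2.82 (SE 0.58, adjusted p = 0.0357, and from 0.00648 to 0.757 over the alternatives). The ratio of the means was 9.95-fold, larger than that of Fos. The 2 lowest diabetic values are under 1 FPKM, where log2(FPKM + 1) understates a change, and with a pseudocount of 0.1 the log2 change was -3.89.

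Fosl2, which encodes FRA-2 (ENSRNOG00000068412, chromosome 6, 24300956 to 24320034), did not pass. Its FPKM was 43.9, 27.1 and 64.6 in non-diabetic, 15.5, 26.0 and 20.2 in diabetic, and 22.9, 37.9 and 35.3 in PRP replicates 1 to 3. The non-diabetic and diabetic groups came within about 1 FPKM of each other without overlapping, and the PRP group lay across both. The log2 change was -1.04 (SE 0.34, adjusted p = 0.0744). Diabetic replicate 1, the highest diabetic library for Fos, was the lowest of all 9 for Fosl2. Fosl1, which encodes FRA-1 (ENSRNOG00000020552, chromosome 1, 202754529 to 202764930), had the lowest mean of the 10 in each group. It stood at 2.11, 0.445 and 3.25 in non-diabetic, 0.572, 0.803 and 0.43 in diabetic, and 0.865, 1.27 and 1.097 FPKM in PRP replicates 1 to 3. Non-diabetic replicate 2 was as low as the diabetic libraries, and the log2 change of -0.75 (SE 0.35) did not pass (adjusted p = 0.161). It was 0.14 without non-diabetic replicates 1 and 3. The gene Ccdc85b, at 7.77 to 14.4 FPKM, overlaps Fosl1 by 1073 bases on the other strand, so the Fosl1 values are uncertain if strand was not used in counting.

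Junb, the JUN protein known as a partner and a restraint of JUN (ENSRNOG00000067725, chromosome 19, 23176294 to 23178035), was the most abundant member in 8 of the 9 libraries. It stood at 369, 283 and 491 in non-diabetic, 176, 141 and 116 in diabetic, and 181, 214 and 101 FPKM in PRP replicates 1 to 3. Every non-diabetic library was above every other library. The mean fell from 381 ± 105 to 144 ± 30.3 FPKM, a log2 change of -1.38 (SE 0.32, adjusted p = 0.0414, and from 0.0144 to 0.758 over the alternatives). The deposited table types this Junb locus as a pseudogene. The locus of a lncRNA on the other strand, listed at 3.17 to 17.0 FPKM, spans all 1742 bases of Junb. Reads in that overlap cannot be told apart if strand was not used in counting.

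Jund, the most steadily expressed JUN gene (ENSRNOG00000019568, chromosome 16, 18734122 to 18735799), stood at 157, 130 and 160 FPKM in non-diabetic replicates 1 to 3. It stood at 123, 79.3 and 79.0 FPKM in diabetic and at 116, 93.9 and 110 FPKM in PRP replicates. The groups did not overlap between diabetic and non-diabetic ulcers, and the log2 change was -0.69 (SE 0.21), just outside the threshold (adjusted p = 0.0637). Jun, whose protein gives AP-1 much of its activating power (ENSRNOG00000026293, chromosome 5, 109893145 to 109897656), stood at 75.1, 50.4 and 61.1 in non-diabetic, 51.9, 48.3 and 19.5 in diabetic, and 40.9, 33.4 and 23.5 FPKM in PRP replicates 1 to 3. Diabetic replicate 1 lay above non-diabetic replicate 2, diabetic replicate 2 just below it, and diabetic replicate 3 was the low one. The log2 change was -0.73 (SE 0.37, adjusted p = 0.192), and it was -0.29 without diabetic replicate 3.

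**Figure D1:**
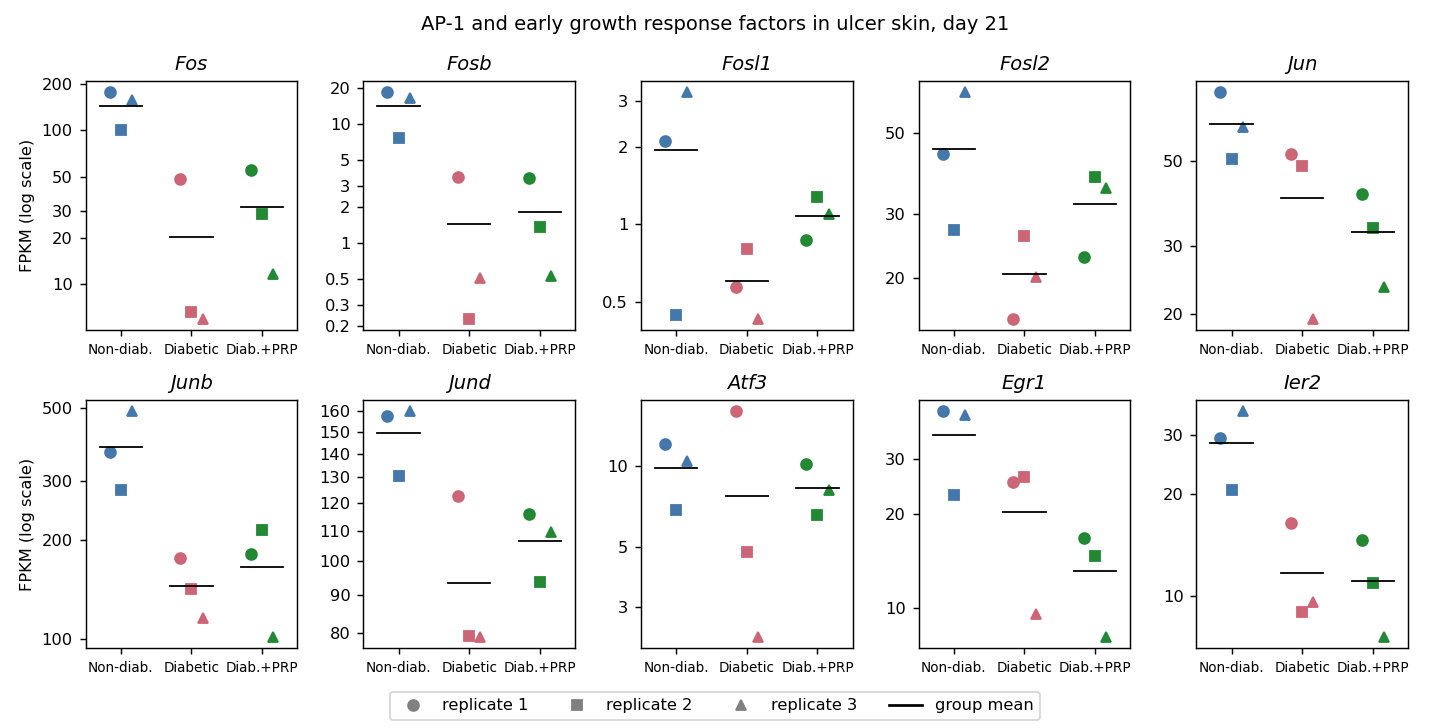
FPKM of each of the 10 genes in each library on a log axis, by group, with marker shape for the replicate number and a line at the group mean. For Fos, Fosb, Junb, Jund and Ier2 the 3 non-diabetic libraries lie above all diabetic and PRP libraries, and non-diabetic replicate 2 is the lowest non-diabetic library for all 10 genes.

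Egr1, a zinc finger factor induced by the same signals as Fos (ENSRNOG00000019422, chromosome 18, 26462981 to 26466766), stood at 42.6, 23.0 and 41.3 FPKM in non-diabetic replicates 1 to 3. It stood at 25.2, 26.2 and 9.57 FPKM in diabetic and at 16.8, 14.7 and 8.09 FPKM in PRP replicates. Non-diabetic replicate 2 lay below diabetic replicates 1 and 2, and the log2 change of -0.85 (SE 0.43) did not pass (adjusted p = 0.185). Ier2, a small nuclear protein of the immediate early response (ENSRNOG00000067274, chromosome 19, 23494184 to 23499211), stood at 29.3, 20.6 and 35.3 in non-diabetic, 16.4, 8.96 and 9.56 in diabetic, and 14.6, 10.9 and 7.53 FPKM in PRP replicates 1 to 3. The non-diabetic libraries were above all others, and the mean fell from 28.4 ± 7.43 to 11.6 ± 4.13 FPKM. The log2 change was -1.23 (SE 0.31, adjusted p = 0.0455, and from 0.00953 to 0.765 over the alternatives), and it no longer passed at a pseudocount of 0.1 or with size factors. Atf3, a stress-induced factor that often represses transcription (ENSRNOG00000003745, chromosome 13, 102751321 to 102764631), had the smallest difference of the 10 on the log2 scale. Its FPKM was 12.1, 6.87 and 10.5 in non-diabetic, 16.1, 4.82 and 2.32 in diabetic, and 10.2, 6.61 and 8.15 in PRP replicates 1 to 3. Diabetic replicate 1 was the highest and diabetic replicate 3 the lowest of all 9 libraries, and the log2 change of -0.62 (SE 0.52) did not pass (adjusted p = 0.414). It was -1.27 without diabetic replicate 1, where it passed (adjusted p = 0.0382), and -0.09 without diabetic replicate 3. With the epithelial level as a covariate it was -0.01.

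The make-up of the FOS family differed between libraries as well as its sum. The summed FPKM of the 4 FOS genes was 241, 135.5 and 242 in non-diabetic, 68.2, 33.8 and 27.1 in diabetic, and 82.9, 69.0 and 48.6 in PRP replicates 1 to 3. FPKM is scaled to gene length, so shares of the sum are given, but whether the genes were otherwise measured alike was not tested. Shares and ratios that hold Fosl1 or Junb, here and below, carry the limits on strand given above. Fos made up 73.2%, 74.0% and 65.0% of the sum in the non-diabetic libraries and 71.2% in diabetic replicate 1, but 19.8% and 22.1% in diabetic replicates 2 and 3, where Fosl2 made up 77.2% and 74.4%. In PRP replicates 1 to 3 Fos made up 67.0%, 41.3% and 24.0%. The Fos share thus overlapped between groups (exact permutation test, two-sided p = 0.20 for diabetic against non-diabetic, where 3 against 3 cannot go below 0.10). The Fosb share was 5.66% to 7.70% in non-diabetic and 0.687% to 5.23% in diabetic libraries, without overlap (exact permutation p = 0.10).

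The summed FPKM of the 3 JUN genes was 601, 463.5 and 712 in non-diabetic, 350.5, 269 and 214 in diabetic, and 338, 341 and 234 in PRP replicates 1 to 3. The ratio of the FOS sum to the JUN sum was 0.344 ± 0.0541 in non-diabetic, 0.149 ± 0.0395 in diabetic and 0.218 ± 0.0235 in PRP ulcers (SD, n = 3 each). None of the 3 groups overlapped another in this ratio, and the exact permutation p was 0.10, the smallest possible, for each pair of groups. The PRP and diabetic groups lay close, with the highest diabetic ratio at 0.1945 and the lowest PRP ratio at 0.2023. Every other sum, share or ratio tested had an exact permutation p of 0.20 or more for PRP against diabetic ulcers. These p-values were not adjusted for the number of measures tested. Junb made up 61.0% to 69.0% of the JUN sum in non-diabetic and 50.2% to 54.0% in diabetic libraries (exact permutation p = 0.10). PRP replicate 3 was the library in which Jund, at 46.8% of the sum, exceeded Junb, at 43.2%.

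**Figure D2:**
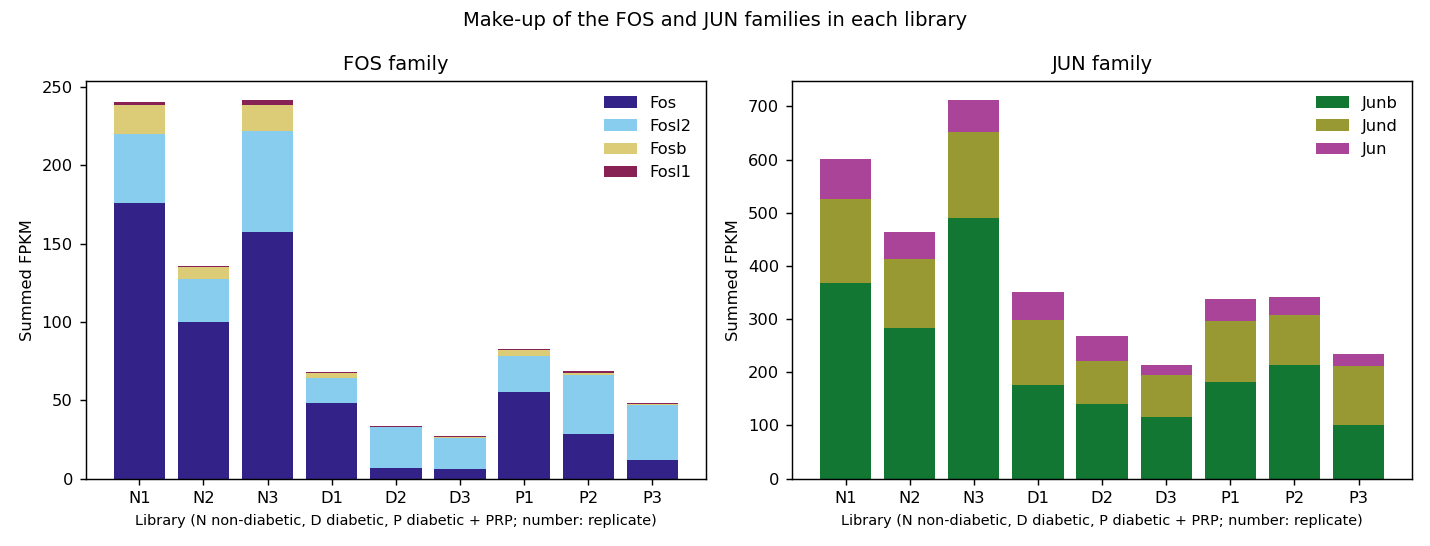
Stacked bars of FPKM of the 4 FOS genes (left) and 3 JUN genes (right) in each library, from 0. The FOS sum is 135.5 to 242 FPKM in the non-diabetic libraries and 27.1 to 82.9 FPKM in the others, and Fosl2 is the larger part in diabetic replicates 2 and 3 and in PRP replicates 2 and 3.

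The order of libraries within a group was shared by some of the genes and not by others. Non-diabetic replicate 2 was the lowest of its group for all 10 genes, while replicates 1 and 3 were each the highest for 5. Diabetic replicate 1 was the highest of its group for 7 genes, all but Fosl1, Fosl2 and Egr1, and PRP replicate 1 was the highest of its group for 7, Fos, Fosb, Jun, Jund, Atf3, Egr1 and Ier2. Both orders were turned for Fosl2, for which diabetic replicate 1 and PRP replicate 1 were the lowest of their groups, and PRP replicate 1 was also the lowest for Fosl1. Diabetic replicate 3 was the lowest of all 9 libraries for 5 genes, Fos, Fosl1, Jun, Jund and Atf3. Over the 9 libraries Fosb and Ier2 had a Pearson correlation of 0.98 on the log2 scale, Jun and Egr1 of 0.97, and Fos and Fosb of 0.97, while Fosl2 and Atf3 had 0.17, as descriptions over libraries that share group and tissue make-up.

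The comparison of PRP-treated with saline-treated diabetic ulcers asked what PRP changes in the diabetic wound. None of the 10 genes passed, as none of the 15600 features did (0% called by limma), while 1021 features and 0 of the 10 genes had an unadjusted p under 0.05. With size factors or with no filter 1 feature passed, and it was none of these genes. Of the 10 genes 7 had a higher mean log2 level with PRP, and the median log2 change was 0.27, against -0.06 over all features. Fos stood at 31.9 ± 22.1 FPKM with PRP and 20.4 ± 24.4 FPKM without (log2 difference 0.99, SE 0.78, adjusted p = 0.749). Fosl2 stood at 32.0 ± 7.99 and 20.6 ± 5.28 FPKM (0.61, SE 0.34, adjusted p = 0.715). Egr1 stood at 13.2 ± 4.53 with PRP and 20.3 ± 9.32 FPKM without (-0.52, SE 0.43, adjusted p = 0.757). Fosl1 was the 1 member whose groups did not overlap, with every PRP library above every diabetic one (0.38, SE 0.35, adjusted p = 0.779), where 5.79% of all features lay so and 5.55% the other way. The SE of 0.78 for Fos is close to the difference itself, so these values do not show that PRP left Fos as it was.

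PRP-treated diabetic ulcers were set against non-diabetic ulcers to ask how far treated wounds stood from non-diabetic ones. This comparison and the first share the non-diabetic libraries. None of the 10 genes passed, and 1 of 15600 features did (0.00641%), while 3182 features and 7 of the 10 genes had an unadjusted p under 0.05. All 10 had a lower mean with PRP (median log2 change -1.08, against -0.04 over all features). In 7 of the 10, Fos, Fosb, Jun, Junb, Jund, Egr1 and Ier2, every PRP library was below every non-diabetic one, where 20.4% of all features lay so and 8.92% the other way. The log2 change was -2.36 for Fos (SE 0.78, adjusted p = 0.176), -2.50 for Fosb (SE 0.58, adjusted p = 0.154), -1.38 for Egr1 (SE 0.43, adjusted p = 0.166) and -1.30 for Ier2 (SE 0.31, adjusted p = 0.154). Without non-diabetic replicate 2, Fosb and Ier2 passed among 706 features, and with sample weights, which gave non-diabetic replicate 1 a weight of 7.495 and replicate 2 a weight of 0.482, 7 of the 10 did among 6474.

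**Figure D3:**
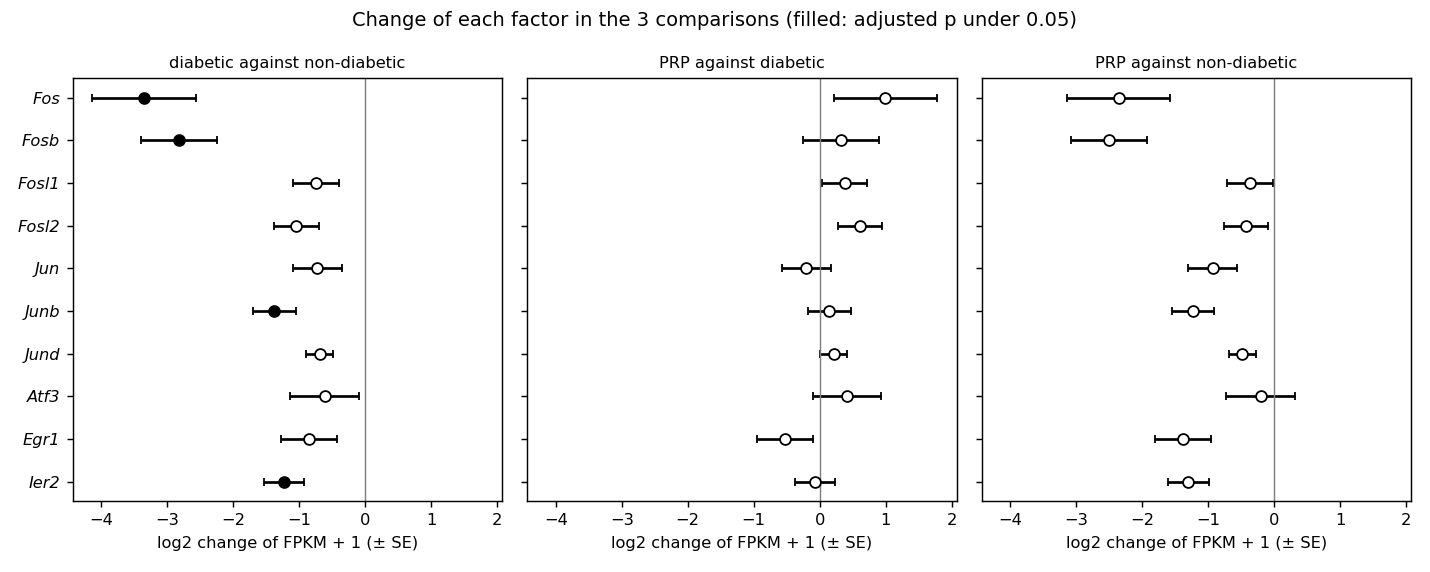
Log2 change of FPKM + 1 with its SE for each gene in the 3 comparisons, filled where the adjusted p is under 0.05. Fos, Fosb, Junb and Ier2 are filled for diabetic against non-diabetic ulcers, at -3.35, -2.82, -1.38 and -1.23, and no gene is filled in the others.

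Ordered by group mean, Fos, Fosb, Fosl2, Fosl1, Junb, Jund and Atf3 ran from non-diabetic through PRP-treated to diabetic ulcers, and Jun, Egr1 and Ier2 from non-diabetic through diabetic to PRP-treated ulcers. PRP-treated and diabetic ulcers did not differ past the threshold for any gene, so the order of these neighbours is not resolved.

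Other genes around these factors were taken from lists, to be read against all features, of which 7.16% fell and 1.79% rose in diabetic ulcers with a median log2 change of 0.045. Of 12 measured partners of AP-1, 4 (33.3%) fell in diabetic ulcers and 0 rose (median log2 change -0.25). Among them were Batf, a lymphoid and myeloid partner of JUN proteins (6.20 ± 2.91 to 1.08 ± 0.533 FPKM, -1.75), Jdp2, a repressor that binds JUN (-1.35), and Batf3 (-0.85). Of 33 other immediate early genes 3 fell and 0 rose, a share of 9.09% that is near the 7.16% of all features and is no result about the list. Their median was -0.59, and 30 of the 33 had a lower mean log2 level. The 3 genes were Nfkbiz (34.6 ± 18.8 to 6.91 ± 1.89 FPKM, -2.04), Cebpd (-1.75) and Irf1 (-1.16). The matrix protein gene Ccn1 stood at 115 ± 53.0 and 28.4 ± 18.9 FPKM (-2.07) and did not pass (adjusted p = 0.0515 in limma). Myc was at 17.2 ± 0.773 and 17.2 ± 6.29 FPKM.

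Of 17 feedback inhibitors of these signals 4 (23.5%, against 7.16% of all features) fell and 0 rose (median -0.52). Socs3, which limits cytokine receptor signalling, went from 106 ± 93.0 to 5.02 ± 3.53 FPKM (-3.88), Zfp36, which destabilises short-lived mRNA, from 37.0 ± 14.9 to 10.3 ± 3.90 FPKM (-1.74), and the others were Zfp36l1 (-0.91) and the ERK phosphatase gene Dusp6 (-0.85). Of 20 measured upstream kinases and SRF cofactors 2 fell and 0 rose (median -0.14), and 7 had a higher mean log2 level. That share, 2 of 20, is also near the 7.16% of all features. The 2 genes were the ETS cofactor gene Elk3 (-1.07) and the p38 kinase gene Mapk14 (-0.52). Mapk3, which encodes ERK1, is listed at 0 in all 9 libraries. That value was not checked against reads and does not show that the gene is not expressed. Of the 4 measured EGR relatives and NAB corepressors none passed (median 0.11). The corepressor genes Nab1 and Nab2 had log2 differences of -0.28 and -0.44, and Egr2 of 0.49. Egr3 had a mean of 3.03 ± 2.02 FPKM without and 7.56 ± 3.99 FPKM with diabetes (1.10, adjusted p = 0.112 in limma), on the other side of 0 from Egr1.

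Of 24 measured genes known as AP-1 targets 5 (20.8%, against 7.16% of all features) fell and 0 rose (median -0.91). These were the urokinase gene Plau (33.1 ± 4.96 to 10.01 ± 3.22 FPKM, -1.66), its receptor gene Plaur (-2.31), the protease inhibitor gene Timp1 (-2.85), the haem oxygenase gene Hmox1 (-2.08) and the chemokine gene Ccl2 (-3.45). Of the 24, 18 had a lower and 6 a higher mean log2 level in diabetic ulcers. Among the 6 was the keratinocyte target Ivl, at 8.05 ± 12.4 and 64.6 ± 44.6 FPKM (3.61), which did not pass (adjusted p = 0.0696 in limma). In PRP-treated against diabetic ulcers none of these lists had a passing gene, as no feature passed. Of the 24 targets 19 had a higher mean log2 level with PRP (median 0.33), where 6395 of 15600 features did (median -0.06). The passing genes of these lists depended on the same libraries as those above, since 0 of all features passed for diabetic against non-diabetic ulcers without non-diabetic replicate 1 or 3, diabetic replicate 3 or PRP replicate 2, and 2 without diabetic replicate 2 or PRP replicate 1.

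Markers of cell types also differed between the groups, some lists being lower in diabetic ulcers, as these genes were, and others higher. The passing counts of these short lists are to be read against all features, of which 7.16% passed lower and 1.79% higher in diabetic ulcers. All 9 macrophage markers were lower in diabetic ulcers and 6 (66.7%) passed (Cd68, Csf1r, C1qa, Cd14, Lyz2 and Mrc1). Their summed FPKM ran from 1997 to 2719 in non-diabetic, 292 to 1325 in diabetic and 859 to 1774 in PRP libraries, with none at 0. All 8 keratinocyte markers were higher with 0 passing, and their summed FPKM ran from 81.9 to 2265 in non-diabetic and from 2801 to 4343 in diabetic libraries. All 8 fibroblast markers were lower with 3 passing, and all 6 endothelial markers were lower with 2 passing. With 0 passing, all 8 hair follicle markers (median log2 change 3.57), all 6 skeletal muscle markers (2.33) and all 4 adipocyte markers (1.12) were higher in diabetic ulcers, and all 5 smooth muscle and pericyte markers were lower (-1.08). All 5 melanocyte markers were higher with 3 passing, all 5 neutrophil markers were lower with 1 passing, and of 4 T cell markers 3 were lower with 1 passing. Diabetic replicate 1, which was high for Fos, had the highest macrophage level of its group at 6.16, against 4.24 and 4.92. This was not particular to macrophages. The same library was also highest of its group for endothelial, smooth muscle and pericyte, and skeletal muscle markers (skeletal muscle 10.28, against 9.24 and 8.07). It was lowest for keratinocyte, hair follicle, adipocyte and melanocyte markers (hair follicle 4.29, against 7.53 and 6.97). Of 11 heat shock genes listed, some of which respond to handling and stress, 9 were measured. Of these 9, 0 passed and 8 were higher in diabetic ulcers (median 0.23, with Hspa8 at 0.14, Hsp90aa1 at 0.23 and Hspd1 at 0.84). Their level was 5.28 to 5.51 in non-diabetic and 5.50 to 5.98 in diabetic libraries. The part of these cell types and of handling in the changes of the 10 genes was not tested. With the epithelial level as a covariate the log2 changes were -2.73 for Fos, -2.18 for Fosb, -1.06 for Junb and -0.83 for Ier2, none of them past the threshold (adjusted p = 0.403, 0.367, 0.415 and 0.451). With non-diabetic replicates 1 and 3 left out they were -2.87, -2.09, -0.99 and -0.82, with 1 non-diabetic library left, whose spread is assumed to be like that of the other groups.

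**Figure D4:**
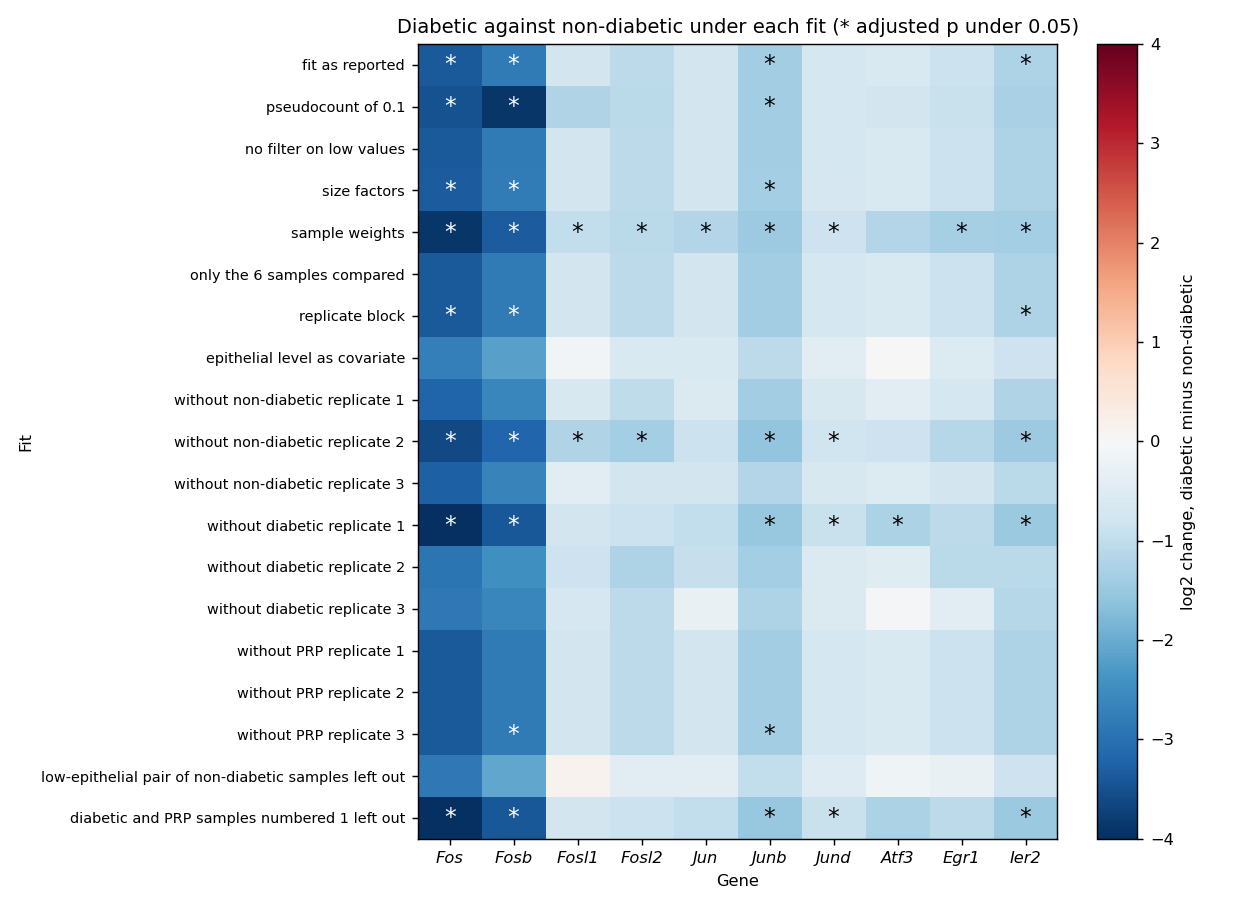
Log2 change of each gene for diabetic minus non-diabetic ulcers (colour) under each fit, with an asterisk where the adjusted p is under 0.05. Fos and Fosb are below 0 in every fit shown, from -4.27 to -2.73 for Fos, and Fosl1 is above 0 in 1 fit, the one without non-diabetic replicates 1 and 3.

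The 6 named features with the profile most like that of Fos over the 9 libraries, among 12082 candidates, were Lilrb3a (Pearson r = 0.98), Lilrb3l (0.98), Lilrb1 (0.98), Ccl7 (0.97), Sap30l (0.96) and Lilrb2 (0.96). The Lilrb genes encode leukocyte receptors and are close paralogs that may share reads. Lilrb3a stood at 44.0 ± 13.2 FPKM in non-diabetic, 7.74 ± 10.3 FPKM in diabetic and 12.5 ± 6.65 FPKM in PRP ulcers. The 6 most like Egr1 were Vcpip1 (0.98), Tbc1d22a (0.96), Ankle2 (0.96), Ccdc9 (0.96), Flywch1 (0.95) and Setd2 (0.95), and they differed little in level, with Vcpip1 at 16.3 ± 1.30, 14.95 ± 1.73 and 13.8 ± 0.695 FPKM in the 3 groups in the same order. No name was shared between the lists for Fos and Egr1. These correlations are descriptions over libraries that share group, depth and tissue make-up.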

How the data were processed

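RNA-seq of ulcer skin, 9 libraries in 3 groups of 3, was grouped by the sample titles. Libraries were directional, per the labels' protocols. StringTie, HISAT2, FastQC and cutadapt are listed in the submitters' processing notes with no version, beside a mouse build, although all 30560 identifiers are of rat. The rat build and whether strand was used are not given in the sources used here. The authors deposited FPKM per gene for all 9 libraries. They also deposited raw counts of 249 lncRNA genes, with a signal per group, a log2 fold change and a p-value of their own comparison, per the file headers. The group signals were taken as means of normalized counts, and the headers do not say how they were scaled. Those 249 genes all have a p under 0.05 in that comparison. Their counts were used for relative depth (genes with at least 20 reads in every library), and read totals over all genes are not known.

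FPKM of rows with the same name were summed (28370 features), a feature was kept where 3 or more libraries reached 0.5 FPKM (15600), and limma-trend (limma 3.58.1, R 4.3.3) was fitted to log2(FPKM + 1) of the 9 libraries with group as the only term, two-sided, adjusted by Benjamini-Hochberg, called at 0.05. The fit was tested on simulated data. Single sums, ratios and shares were tested with exact permutation tests in scipy 1.17.1, without adjustment for their number. Alternatives were a pseudocount of 0.1, no filter, size factors, sample weights, the 6 libraries compared, a replicate block, an epithelial covariate and left-out libraries. The members, gene lists and alternatives were chosen with earlier results of these data known. All 10 members are named. Of each list up to 6 passing genes or, with none passing, up to 3 of the highest mean FPKM are named, and the genes most like Fos and Egr1 by correlation. Ccn1, Myc, Egr3, Ivl, Mapk3, Ccdc85b and the lncRNAs beside members were chosen after their values were seen. A further passing gene of the lists is not reported here.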

Additional observations from a re-analysis of the deposited data

How the results depend on the processing

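For diabetic against non-diabetic ulcers, 4 of the 10 genes and 1396 features passed. With no filter on low values, with only the 6 libraries compared, with the epithelial covariate and without non-diabetic replicates 1 and 3, both counts were 0. With sample weights they were 9 and 5607, and with size factors 3 and 866. Leaving out 1 library at a time gave 0 to 7 genes and 0 to 3475 features. Without diabetic and PRP replicates 1 (chosen after seeing the data) they were 5 and 1831. For PRP-treated against diabetic ulcers the counts of 0 genes and 0 features became 1 feature with no filter and with size factors, and stayed at 0 genes and 0 features with each library left out. For PRP-treated against non-diabetic ulcers the counts of 0 genes and 1 feature became 7 and 6474 with sample weights. The feature count was 2 with no filter and 0 with the 6 libraries compared, the replicate block, the epithelial covariate or without non-diabetic replicates 1 and 3. Leaving out 1 library gave 0 to 2 genes and 0 to 706 features. Where fewer libraries, more features or a further term entered a fit, its power differed by construction. With the epithelial covariate the SE of Fos for diabetic against non-diabetic ulcers was 1.01, against 0.78 without it. For the other changes the cause was not tested.

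With the replicate number as a block, 3 genes (Fos, Fosb and Ier2) and 1259 features passed for diabetic against non-diabetic ulcers. Same-numbered libraries correlated from -0.407 to 0.351 in their deviations from group means, and 2 of 9 libraries correlated best with their own number, so the numbers were not taken as pairs.

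Log2 changes that turned sign were none that had passed. Atf3 in PRP-treated against non-diabetic ulcers became 0.333 with the epithelial covariate and 0.226 without non-diabetic replicates 1 and 3, and Fosl1 became 0.201 and 0.519 there. Fosl1 became 0.142 for diabetic against non-diabetic ulcers and Fosl2 0.204 for PRP-treated against non-diabetic ulcers without those replicates. Jun became 0.052 in PRP-treated against diabetic ulcers with sample weights. With 1 library left out at a time, log2 changes in PRP-treated against diabetic ulcers ran from -0.116 to 1.065 for Atf3, -0.095 to 0.904 for Fosb, -0.279 to 0.185 for Ier2, -0.64 to 0.044 for Jun and -0.07 to 0.466 for Junb. Relative to the median of all features, which lay within 0.1 of 0 in each comparison, no gene changed direction. FPKM under 1, as for Fosl1 and for Fosb in diabetic ulcers, limits how well those changes are known.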

Other observations

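The lncRNA ENSRNOG00000065682 (chromosome 19, 23175205 to 23178490, minus strand) spans the whole of Junb on the other strand. Its FPKM was 10.4, 8.24 and 17.0 in non-diabetic, 7.77, 6.56 and 3.17 in diabetic, and 8.27, 9.58 and 4.46 in PRP replicates 1 to 3. It was highest in non-diabetic replicate 3 and lowest in diabetic replicate 3, and Junb was likewise highest in non-diabetic replicate 3 and lowest of its group in diabetic replicate 3. Its log2 change was -0.92 for diabetic against non-diabetic ulcers and did not pass (adjusted p = 0.121 in limma). In the authors' deposited table it had a log2 fold change of -1.07, with an adjusted p of 0.125, and that table lists lncRNA genes with an unadjusted p under 0.05. Its deposited read counts were 3121, 2905 and 4709 in non-diabetic and 2508, 2056 and 1064 in diabetic replicates 1 to 3.

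The lncRNA ENSRNOG00000069893 starts 95 bases from Jun on the other strand (chromosome 5, 109897752 to 109914224, plus strand). Its FPKM was 3.25, 2.21 and 1.92 in non-diabetic, 6.10, 5.66 and 2.58 in diabetic, and 2.55, 2.68 and 2.60 in PRP replicates 1 to 3. The mean without diabetes was 2.46 ± 0.701 FPKM and with diabetes 4.78 ± 1.92 FPKM, on the other side of 0 from Jun, and its log2 change of 0.69 did not pass (adjusted p = 0.111 in limma). Within the diabetic group it was high in replicates 1 and 2 and low in replicate 3, as was Jun. Both lncRNAs were picked for their position after their values were seen.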
